A study of Mus musculus with 16 samples.

Results

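The genes described here are the matrix metalloproteinases (Mmp), the ADAMTS proteases (Adamts) and the tissue inhibitors of metalloproteinases (Timp). The rule rests on symbol and gene class and uses no measured value. It took every protein-coding gene whose symbol starts with Mmp or Adamts and a digit, together with Timp1 to Timp4. It found 45 of 55414 gene IDs: 22 Mmp, 19 Adamts and 4 Timp genes. Mmp1a is annotated as a polymorphic pseudogene and stayed outside.

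RNA-seq gene counts were made from 16 subcutaneous tumours in 4 groups of 4, and the study asked how enzalutamide and alternate-day fasting alter the tumour transcriptome. Every tumour grew from B6MyC-CaP, a prostate cancer line that carries the Hi-MYC transgene in a C57BL/6 background, grafted into male C57BL/6 mice aged 6 weeks. ADF + ENZ mice were fasted for 24 h and fed for 24 h in turn and received 20 mg/kg of the antiandrogen drug enzalutamide by daily gavage. ADF mice followed the same fasting schedule without the drug. ENZ mice received the drug at that dose with free access to chow, and Vehicle mice had free access to chow without it. One cell line under the skin is not a prostate, and the mouse supplies the stroma, vessels and immune cells. The labels do not state that each tumour came from its own mouse, so the p-values cover only the spread among these libraries.

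Metalloproteinases of both families are zinc-dependent enzymes, most of them secreted as inactive proforms, that cut collagens, proteoglycans and other proteins of the extracellular matrix. MMPs are grouped by preferred substrate or by a membrane anchor, while ADAMTS proteases carry thrombospondin repeats that bind matrix and include the enzymes that trim procollagens. TIMPs block the active site of MMPs, and Timp2 also joins Mmp14 in a complex at the cell surface that activates pro-Mmp2.

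An Mmp cluster spans chr9:7272514-7699585 (GRCm38), 427.1 kb, and holds 9 members in the order Mmp13, Mmp12, Mmp1b, Mmp3, Mmp10, Mmp8, Mmp27, Mmp20 and Mmp7. RefSeq promoter windows (GRCm38.p6, 34 windows for 31 of the 45 members) were searched on both strands within 250 bases before the start. The AP-1 site TGANTCA, the binding sequence of Fos and Jun dimers, was in 7 of 11 windows of the cluster genes, which belong to 7 of the 9 genes, and in 0 of 23 windows of members outside the cluster, against 6.75% of 32851 promoters. Mmp8 and Mmp27 had no such letters in these windows, and Mmp12 and Mmp7 had them in 1 of 2 windows each. The GC box GGGCGG was in 16 of the 34 member windows, against 32.7% of all promoters, and TATAAA in 8, against 12.4%. A match is a description of the letters, not a bound site. The stretches below show the AP-1 match, and TATAAA where present, in capitals for the cluster genes. The GC box on either strand is in capitals for Timp2 and Adamts3. Timp2 was the most abundant member, and Adamts3 was one of the 2 members with calls that held in all settings. All stretches run 5′ to 3′ on the gene's strand.
Mmp13, chr9:7272394-7272513 (+): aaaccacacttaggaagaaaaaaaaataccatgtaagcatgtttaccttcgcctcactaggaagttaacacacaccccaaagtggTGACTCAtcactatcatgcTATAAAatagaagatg
Mmp12, chr9:7347254-7347373 (+): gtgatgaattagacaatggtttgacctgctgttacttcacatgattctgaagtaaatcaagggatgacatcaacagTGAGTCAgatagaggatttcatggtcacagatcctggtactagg
Mmp3, chr9:7445702-7445821 (+): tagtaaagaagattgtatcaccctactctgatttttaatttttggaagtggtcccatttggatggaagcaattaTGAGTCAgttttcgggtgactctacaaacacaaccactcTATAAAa
Mmp10, chr9:7502222-7502341 (+): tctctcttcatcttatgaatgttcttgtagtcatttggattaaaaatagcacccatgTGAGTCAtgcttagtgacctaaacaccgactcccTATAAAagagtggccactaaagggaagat
Mmp7, chr9:7691970-7692089 (+): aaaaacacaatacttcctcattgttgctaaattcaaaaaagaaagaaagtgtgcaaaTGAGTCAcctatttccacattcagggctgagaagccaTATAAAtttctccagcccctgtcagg
Timp2, chr11:118355412-118355531 (-): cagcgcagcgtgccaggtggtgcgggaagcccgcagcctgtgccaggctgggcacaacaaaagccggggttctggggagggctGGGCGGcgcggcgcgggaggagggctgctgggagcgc
Adamts3, chr5:89883335-89883454 (-): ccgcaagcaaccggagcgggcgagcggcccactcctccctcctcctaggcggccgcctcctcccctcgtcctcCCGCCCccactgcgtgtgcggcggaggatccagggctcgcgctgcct

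Counts assigned to genes were 10072489 to 25505655 per library in ADF + ENZ, 12289755 to 16140246 in ADF, 10630096 to 23558532 in ENZ and 15722655 to 18313259 in Vehicle. Reads in no annotated feature were 21.2% to 26.1% in ADF + ENZ, 30.3% to 36.7% in ADF, 24.5% to 27.9% in ENZ and 23.4% to 27.9% in Vehicle, so the ADF libraries stood apart, and this measure and fasting without drug cannot be told apart. The same holds for reads without a unique alignment, which were 4.10% to 5.03% in ADF. They were 6.51% to 7.90% in ADF + ENZ, 7.81% to 7.96% in ENZ and 7.16% to 7.84% in Vehicle. ADF + ENZ replicate 3 stood apart on the first principal component, at 27.8 against at most 14.5 in the other libraries. The luminal markers Krt8, Krt18 and Hoxb13 were present, while Epcam was at most 0.808 CPM in any library. These are bulk tumours, in which fewer cells of a type and less RNA per cell cannot be told apart.

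Of the 45 members, 34 passed the filter on low counts and were tested: 16 Mmp, 14 Adamts and 4 Timp genes. Levels are CPM, counts divided by library size, scaled by TMM. Per kb of exon, Timp2 was the most abundant at 252 CPM per kb over the 16 libraries, followed by Timp1 at 76.4, Mmp14 at 33.2, Timp3 at 23.0, Adamts14 at 17.6 and Adamts1 at 17.1. Mmp11, Mmp2, Mmp19 and Mmp3 were next, between 8.51 and 10.3 CPM per kb. The neighbours Adamts14 and Adamts1, and those from Mmp11 to Mmp3, lay close to each other in level, within the spread between tumours.

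**Figure D1:**
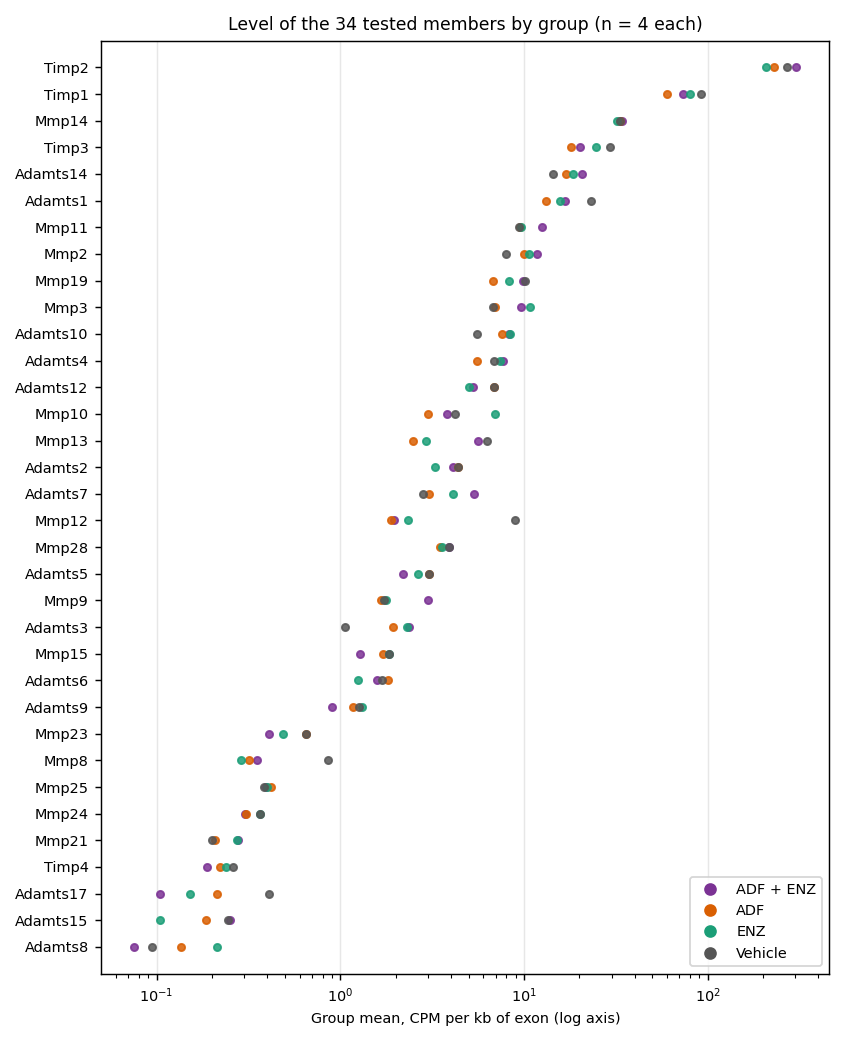
Group mean level of the 34 tested members in CPM per kb of exon on a log axis, one dot per group (n = 4 tumours each), ordered by mean level. Timp2 lies at the top at 252 CPM per kb, and the 4 groups lie close together for most genes.

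Another 11 members were below the filter. Mmp20, enamelysin of tooth enamel, had 0 counts in every group, which allows up to 0.0490 CPM in ADF + ENZ, 0.0535 in ADF, 0.0451 in ENZ and 0.0443 in Vehicle at 3 counts over the group, counting error only. Matrilysin, Mmp7, had 0 counts in ADF + ENZ, 1 in ADF, 0 in ENZ and 1 in Vehicle. The highest of the 11 were Mmp17, a membrane-anchored protease, with 42, 17, 16 and 21 counts over the 4 libraries of ADF + ENZ, ADF, ENZ and Vehicle, and Mmp27 with 14, 22, 9 and 29. Adamts19 had 6, 24, 3 and 5 counts in the same order of groups, and Adamts13, which cuts von Willebrand factor, had 8, 11, 2 and 8. Mmp1b, Mmp16, Adamts16, Adamts18 and Adamts20 had between 0 and 12 counts in any group.

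Changes were tested by edgeR's quasi-likelihood test with Benjamini-Hochberg adjustment over 18946 genes, and a gene was called at an adjusted p under 0.05. In ENZ against Vehicle, 2 members rose (1.81% of all genes did) and 1 fell (3.62%), with 5.43% of all genes called in either direction. In ADF against Vehicle, 2 rose (4.05% of all genes) and 2 fell (4.96%), with 9.01% called. In ADF + ENZ against Vehicle, 4 rose (5.97%) and 2 fell (6.53%), with 12.5% called. The 3 comparisons share the Vehicle libraries. In ADF + ENZ against ENZ 1 member rose (0.813%) and 0 fell (0.274%), with 1.09% called. In ADF + ENZ against ADF, 4 rose (8.72%) and 1 fell (7.54%), with 16.3% called. The interaction, which is the fasting effect under enzalutamide minus the fasting effect without the drug, was positive and called for 2 members (2.18% of all genes) and negative for 0 (0.918%), with 3.10% called in either direction. In all, 10 of the 34 tested members were called in at least 1 of the 6 contrasts, 29.4% of them against 28.9% of all genes tested: the members as a whole were called about as often as other genes. Of the 10, 8 were Adamts genes, 1 an Mmp and 1 a Timp.

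Markers of other cell types separated some of the same groups. The summed level of the 5 osteoclast markers, all with counts in every group, was 19.9 to 48.0 CPM in ADF + ENZ and 9.89 to 17.6 in ADF, without overlap; it was 18.9 to 37.1 in ENZ and 15.8 to 34.7 in Vehicle. Basal epithelial markers summed to 4.71 to 7.68 CPM in ADF + ENZ, against 10.4 to 14.0 in ADF and 8.23 to 14.4 in Vehicle, also without overlap, and to 5.11 to 9.97 in ENZ. Of the 6 basal markers, 5 had counts in ADF + ENZ, 3 in ADF, 5 in ENZ and 4 in Vehicle, and the defining keratin Krt5 was at 0 in ADF + ENZ and ADF. The part of these markers in the members' changes in ADF + ENZ against ADF and against Vehicle was not tested.

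The median log2 change of the 34 members was -0.09 in ENZ against Vehicle, -0.08 in ADF against Vehicle and -0.09 in ADF + ENZ against Vehicle, with medians of 0.01, 0.01 and 0.00 over all genes. It was 0.07 in ADF + ENZ against ENZ, 0.17 in ADF + ENZ against ADF and 0.20 for the interaction, with -0.01, -0.02 and -0.02 over all genes. Ranges of the 4 tumours a group did not overlap for 7 members in ENZ against Vehicle (12.0% of all genes), 4 in ADF against Vehicle (16.5%), 7 in ADF + ENZ against Vehicle (17.3%), 0 in ADF + ENZ against ENZ (8.67%) and 3 in ADF + ENZ against ADF (20.5%).

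**Figure D2:**
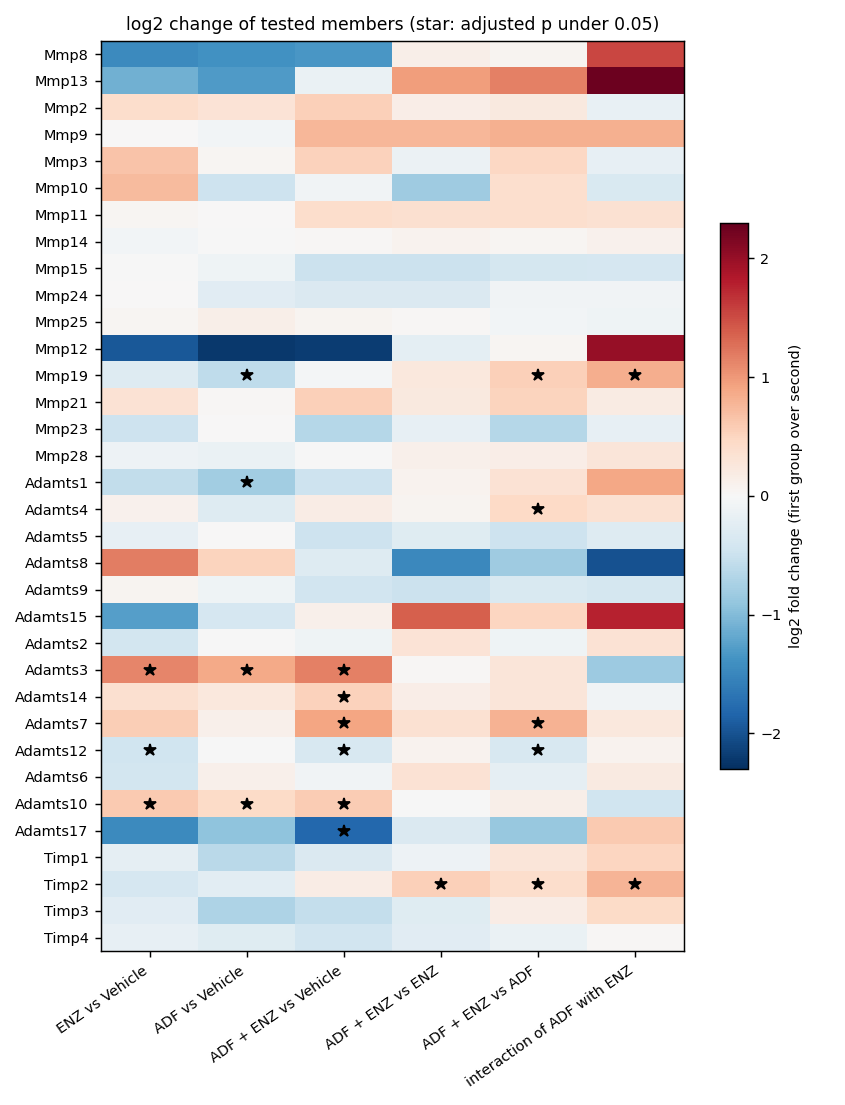
Log2 change of the 34 tested members (down the page) in the 6 contrasts (across), coloured by the change of the first group over the second, with a star where edgeR's adjusted p was under 0.05. Stars fall on 10 members, and Adamts3 and Adamts10 carry them in all 3 comparisons with Vehicle.

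Among procollagen N-proteinases, which remove the amino-terminal propeptide of fibrillar procollagens, Adamts3 (chr5:89677087-89883334) was higher in the treated groups (coordinates here and below are GRCm38); it also processes the lymphatic growth factor VEGF-C. Adamts3 measured 10.8, 15.7, 13.1 and 11.6 CPM in ADF + ENZ tumours, 5.92, 11.6, 11.7 and 12.7 in ADF tumours and 9.48, 12.1, 16.3 and 12.0 in ENZ tumours, against 6.12, 7.72, 4.06 and 5.03 in Vehicle tumours. The Vehicle tumours were below every ADF + ENZ and every ENZ tumour, while ADF replicate 1 lay inside the Vehicle range. Group levels were 12.8 ± 2.15 CPM in ADF + ENZ, 10.5 ± 3.07 in ADF, 12.5 ± 2.82 in ENZ and 5.73 ± 1.57 in Vehicle (SD, n = 4 each). Adamts3 rose in ADF + ENZ against Vehicle (log2 change 1.15 ± 0.23 (SE), adjusted p = 0.00428, edgeR quasi-likelihood), in ENZ against Vehicle (1.12 ± 0.23 (SE), adjusted p = 0.00834) and in ADF against Vehicle (0.87 ± 0.23 (SE), adjusted p = 0.0279). The first and second of these calls held in every alternative run; the third was lost without a filter on low counts (0.84), with only the 2 groups in the fit (0.87), with the no-feature percent as covariate (0.75), without ADF replicates 2, 3 and 4 (0.81, 0.82 and 0.76) and without Vehicle replicates 3 and 4 (0.74 and 0.81), log2 changes in brackets.

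Adamts14 (chr10:61197112-61273438), a second procollagen N-proteinase and the most abundant ADAMTS per kb, was called in ADF + ENZ against Vehicle alone. Adamts14 measured 93.5, 111, 122 and 101 CPM in ADF + ENZ tumours, 74.7, 74.1, 91.5 and 110.0 in ADF tumours and 75.0, 85.3, 111 and 113 in ENZ tumours, against 92.5, 65.8, 80.2 and 58.9 in Vehicle tumours. All ADF + ENZ tumours lay above all Vehicle tumours, by a narrow margin, and ADF and ENZ overlapped Vehicle. The log2 change in ADF + ENZ against Vehicle was 0.52 ± 0.16 (SE), adjusted p = 0.0475 by edgeR's test, and the call was lost without a filter on low counts (0.51), with the no-feature percent as covariate (0.55), without ADF + ENZ replicates 1, 2, 3 and 4 (0.58, 0.51, 0.45 and 0.55) and without Vehicle replicates 2, 3 and 4 (0.47, 0.56 and 0.43). The remaining enzyme of this kind, Adamts2, the main procollagen I N-proteinase, passed in no contrast, with levels of 38.1 ± 10.9 CPM in ADF + ENZ, 40.8 ± 8.40 in ADF, 30.4 ± 2.53 in ENZ and 41.0 ± 7.01 in Vehicle (SD, n = 4 each).

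Adamts10 (chr17:33524204-33553782), which associates with fibrillin microfibrils and is mutated in human Weill-Marchesani syndrome, had the smallest adjusted p among the members. Adamts10 measured 75.3, 67.4, 70.3 and 62.1 CPM in ADF + ENZ tumours, 60.8, 65.8, 54.9 and 68.6 in ADF tumours and 67.5, 65.3, 76.9 and 67.6 in ENZ tumours, against 45.8, 50.2, 35.1 and 52.4 in Vehicle tumours. Each of the 3 treated groups lay wholly above Vehicle. Levels were 68.8 ± 5.54 CPM in ADF + ENZ, 62.5 ± 6.04 in ADF, 69.3 ± 5.17 in ENZ and 45.9 ± 7.69 in Vehicle (SD, n = 4 each). The log2 change was 0.58 ± 0.11 (SE), adjusted p = 0.00255 in ADF + ENZ against Vehicle, 0.45 ± 0.11 (SE), adjusted p = 0.0180 in ADF against Vehicle and 0.59 ± 0.11 (SE), adjusted p = 0.00321 in ENZ against Vehicle, by edgeR's test. The calls with enzalutamide held in every alternative, and the ADF call was lost with the no-feature percent as covariate (0.36), without ADF replicate 4 (0.40) and without Vehicle replicate 3 (0.34). ADF + ENZ differed from ENZ by a log2 change of -0.01 (adjusted p = 0.971).

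Adamts17, a relative of Adamts10 linked to the same kind of human syndrome (chr7:66839735-67153171), was scarce, and lower in ADF + ENZ than in Vehicle. Adamts17 measured 0.654, 0.664, 0.219 and 1.70 CPM in ADF + ENZ tumours, 0.959, 2.31, 1.89 and 1.43 in ADF tumours and 1.25, 1.36, 1.502 and 0.581 in ENZ tumours, against 1.66, 2.86, 2.68 and 5.47 in Vehicle tumours. Vehicle replicate 4 was the highest tumour, and ADF + ENZ replicate 4 lay just inside the Vehicle range. Adamts17 fell in ADF + ENZ against Vehicle (-1.80 ± 0.45 (SE), adjusted p = 0.0153, edgeR), and the call was lost without Vehicle replicate 4 (-1.39). In ENZ against Vehicle the log2 change was -1.47 (adjusted p = 0.0603), and it passed by DESeq2 (adjusted p = 0.0224) and without Vehicle replicate 1 (-1.69). Adamts6 passed in no contrast and spanned 6.77 to 18.5 CPM.

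The COMP-cleaving pair, named for cartilage oligomeric matrix protein, moved in opposite directions in ADF + ENZ against Vehicle. Adamts7 lies at chr9:90163069-90208071 and overlaps Tbc1d2b on the other strand over 122 bp of exon. In ADF + ENZ against Vehicle Tbc1d2b gave a log2 change of 0.30 (adjusted p = 0.0751, edgeR), and its part in the result was not tested. Adamts7 measured 31.7, 28.3, 39.8 and 33.7 CPM in ADF + ENZ tumours, 18.9, 20.1, 21.8 and 15.5 in ADF tumours and 15.8, 32.8, 24.5 and 30.6 in ENZ tumours, against 23.9, 14.3, 20.8 and 11.6 in Vehicle tumours. ADF + ENZ tumours were above all ADF and all Vehicle tumours, and ENZ overlapped them. The log2 change in ENZ against Vehicle was 0.56 (adjusted p = 0.174, edgeR), and it passed without ENZ replicate 1 (0.73, adjusted p = 0.0403). ADF + ENZ differed from ENZ by 0.35 (adjusted p = 0.485). Adamts7 rose in ADF + ENZ against Vehicle (0.92 ± 0.23 (SE), adjusted p = 0.0169) and in ADF + ENZ against ADF (0.80 ± 0.23 (SE), adjusted p = 0.0284), by edgeR's test. The first call was lost without a filter on low counts (0.90), with the no-feature percent as covariate (0.78) and without ADF + ENZ replicate 3 (0.82) and the second without a filter on low counts (0.81), with the no-feature percent as covariate (0.23), without ADF + ENZ replicates 1, 3 and 4 (0.83, 0.71 and 0.80) and without ADF replicate 4 (0.72).

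Adamts12 (chr15:11064790-11349231), by contrast, was lower in both groups that received enzalutamide. Adamts12 measured 60.5, 53.7, 52.6 and 63.5 CPM in ADF + ENZ tumours, 66.7, 86.5, 73.6 and 71.5 in ADF tumours and 66.4, 56.7, 49.2 and 46.3 in ENZ tumours, against 73.5, 83.8, 64.0 and 77.1 in Vehicle tumours. The ADF + ENZ range lay below those of ADF and Vehicle, and ENZ replicate 1 reached into the Vehicle range. Levels were 57.6 ± 5.28 CPM in ADF + ENZ, 74.6 ± 8.48 in ADF, 54.6 ± 8.99 in ENZ and 74.6 ± 8.25 in Vehicle (SD, n = 4 each). Adamts12 fell in ENZ against Vehicle (-0.45 ± 0.11 (SE), adjusted p = 0.0253), in ADF + ENZ against Vehicle (-0.37 ± 0.11 (SE), adjusted p = 0.0387) and in ADF + ENZ against ADF (-0.37 ± 0.11 (SE), adjusted p = 0.0339), by edgeR's test, while ADF against Vehicle gave 0.00. None of the 3 calls held throughout: ENZ against Vehicle was lost with only the 2 groups in the fit (-0.46), without ENZ replicates 3 and 4 (-0.41 and -0.38) and without Vehicle replicates 2 and 4 (-0.39 and -0.44). ADF + ENZ against Vehicle was lost with the no-feature percent as covariate (-0.34), without ADF + ENZ replicates 1, 2 and 3 (-0.39, -0.34 and -0.33) and without Vehicle replicates 1, 2 and 4 (-0.39, -0.31 and -0.36). ADF + ENZ against ADF was lost with the no-feature percent as covariate (-0.23), without ADF + ENZ replicates 1, 2 and 3 (-0.39, -0.34 and -0.33) and without ADF replicates 2, 3 and 4 (-0.29, -0.38 and -0.39). The summed level of 10 of 10 fibroblast markers was 11860.4 to 13729 CPM in ADF + ENZ, 9189 to 12865 in ADF, 9713 to 10785 in ENZ and 11255 to 13070 in Vehicle, so it was lower in ENZ than in Vehicle without overlap. By gene, 0 of the 10 markers rose and 0 fell in ENZ against Vehicle, with a median log2 change of -0.13. The part of this sum in the Adamts12 result was not tested.

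Proteoglycanases of the ADAMTS family cut aggrecan, versican and related core proteins, and 6 of the 7 members were tested. Adamts1 (chr16:85793827-85803113) was the most abundant of them. Adamts1 measured 95.9, 61.9, 107 and 87.8 CPM in ADF + ENZ tumours, 53.6, 97.7, 56.1 and 71.5 in ADF tumours and 92.0, 87.7, 76.2 and 75.6 in ENZ tumours, against 113, 108, 119.97 and 147 in Vehicle tumours. Every treated tumour was below every Vehicle tumour. Levels were 88.2 ± 19.2 CPM in ADF + ENZ, 69.7 ± 20.3 in ADF, 82.9 ± 8.23 in ENZ and 122 ± 17.2 in Vehicle (SD, n = 4 each). Adamts1 fell in ADF against Vehicle (-0.81 ± 0.18 (SE), adjusted p = 0.0162, edgeR); the log2 change was -0.56 in ENZ against Vehicle (adjusted p = 0.0881) and -0.47 in ADF + ENZ against Vehicle (adjusted p = 0.103). DESeq2 called Adamts1 in ENZ against Vehicle (-0.57, adjusted p = 0.0267) and for the interaction (0.93, adjusted p = 0.0101), and so did a fit of only ENZ and Vehicle in edgeR for the first (-0.56, adjusted p = 0.0134). By edgeR in the fit of 16 libraries the interaction was 0.89 ± 0.26 (SE), adjusted p = 0.0711, and its call was gained without ADF + ENZ replicate 2 (1.03) or ADF replicate 2 (1.11). The ADF call held with any single library left out and was lost with the no-feature percent as covariate (-0.82).

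Adamts4 (chr1:171250421-171260637), an aggrecanase, differed between the fasted groups. Adamts4 measured 42.2, 39.95, 34.6 and 31.3 CPM in ADF + ENZ tumours, 22.9, 31.6, 24.6 and 28.2 in ADF tumours and 31.8, 37.9, 40.1 and 32.1 in ENZ tumours, against 37.4, 27.9, 35.8 and 30.9 in Vehicle tumours. ADF + ENZ replicate 4 lay inside the ADF range by a small margin. Adamts4 rose in ADF + ENZ against ADF (0.46 ± 0.13 (SE), adjusted p = 0.0209, edgeR), and the call was lost with the no-feature percent as covariate (0.66), without ADF + ENZ replicate 1 (0.40) and without ADF replicate 3 (0.42). Adamts5, the other main aggrecanase, Adamts8, Adamts9 and Adamts15 passed in no contrast. Over the 16 tumours Adamts5 spanned 18.1 to 40.7 CPM, Adamts9 7.45 to 23.7, Adamts15 0.208 to 6.60 and Adamts8 0.0817 to 1.44.

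**Figure D3:**
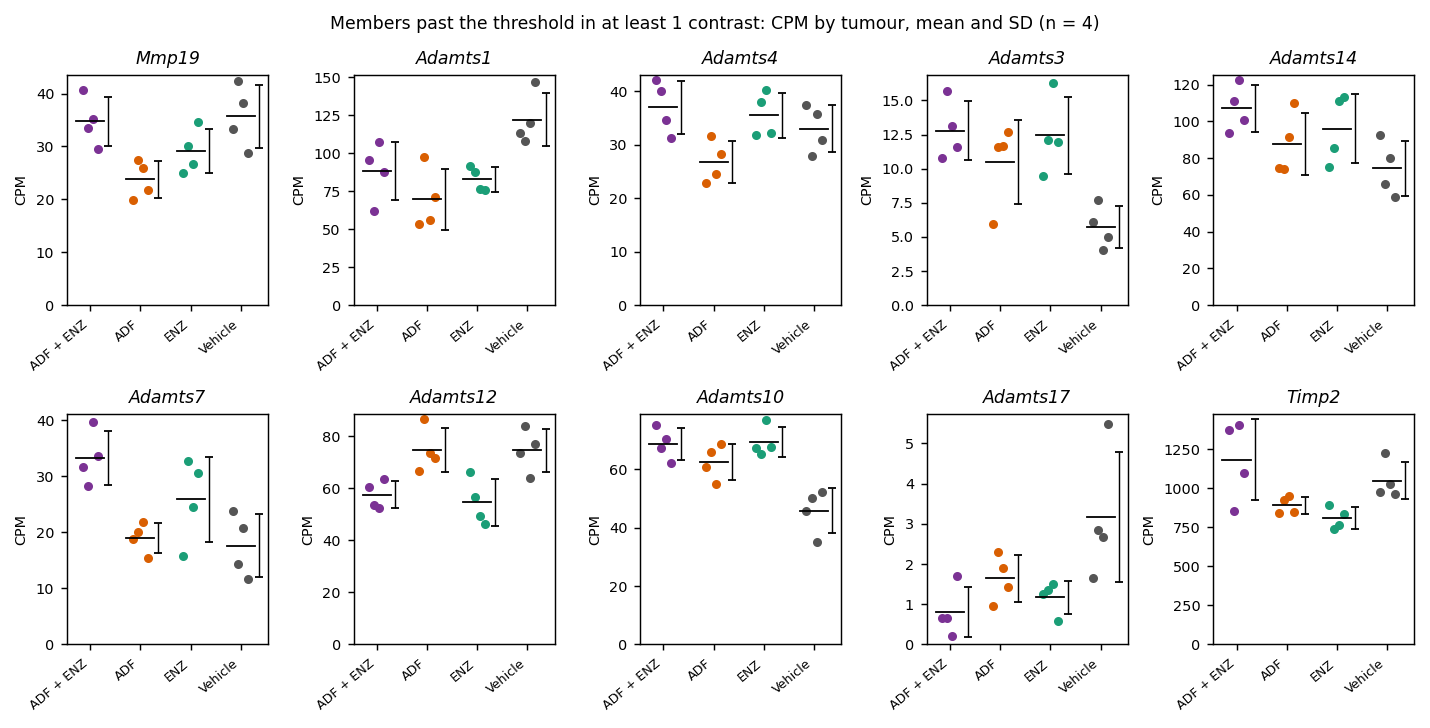
Level in CPM of the 10 members called in at least 1 contrast, one dot per tumour with the group mean and SD (n = 4), groups in the order ADF + ENZ, ADF, ENZ and Vehicle. For Adamts10 all treated tumours lie above the Vehicle tumours, and for Adamts1 all lie below them.

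Mmp19 (chr10:128790910-128800824) was the one called Mmp; it is a secreted protease that cuts basement membrane components. Mmp19 measured 40.7, 33.6, 35.3 and 29.6 CPM in ADF + ENZ tumours, 19.9, 27.5, 26.0 and 21.9 in ADF tumours and 25.1, 30.1, 26.7 and 34.6 in ENZ tumours, against 33.2, 42.5, 38.2 and 28.8 in Vehicle tumours. The ADF tumours lay below all ADF + ENZ and all Vehicle tumours. Levels were 34.8 ± 4.60 CPM in ADF + ENZ, 23.8 ± 3.52 in ADF, 29.1 ± 4.21 in ENZ and 35.7 ± 5.93 in Vehicle (SD, n = 4 each). Mmp19 fell in ADF against Vehicle (-0.58 ± 0.14 (SE), adjusted p = 0.0152) and rose in ADF + ENZ against ADF (0.54 ± 0.14 (SE), adjusted p = 0.0153), by edgeR's test. The interaction was 0.83 ± 0.19 (SE), adjusted p = 0.0292. The first call was lost with the no-feature percent as covariate (-0.29), without ADF replicate 4 (-0.54) and without Vehicle replicate 2 (-0.49), and the second with the no-feature percent as covariate (0.19), without ADF + ENZ replicate 1 (0.46) and without ADF replicate 4 (0.50). The interaction call was lost with the no-feature percent as covariate (0.47), without ADF + ENZ replicates 1 and 3 (0.75 and 0.81), without ADF replicate 4 (0.79), without ENZ replicates 1 and 3 (0.77 and 0.79) and without Vehicle replicates 2 and 3 (0.74 and 0.80). Tmem198b overlaps Mmp19 on the other strand over 789 bp and gave -0.05 in ADF against Vehicle (adjusted p = 0.849).

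Mmp14, the membrane-type protease that cuts collagen at the cell surface and activates pro-Mmp2, was the most abundant Mmp. Mmp14 measured 232, 168, 202 and 211 CPM in ADF + ENZ tumours, 154, 303, 171 and 162 in ADF tumours and 191, 211, 182 and 182 in ENZ tumours, against 175, 269, 146 and 207 in Vehicle tumours. All groups overlapped, and ADF replicate 2 was the highest tumour. Levels were 203 ± 26.8 CPM in ADF + ENZ, 198 ± 70.7 in ADF, 191 ± 13.9 in ENZ and 199 ± 52.8 in Vehicle (SD, n = 4 each), and no contrast passed. Mmp15, Mmp24 and Mmp25, the other membrane-type members tested, passed in none either and spanned 4.71 to 12.0, 0.743 to 2.38 and 0.951 to 3.60 CPM. Outside the membrane-type enzymes, Mmp28, epilysin, spanned 11.5 to 18.6 CPM, Mmp23 0.480 to 2.91 CPM and Mmp21 0.249 to 1.43 CPM, none with a call.

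The gelatinases cut denatured collagen and type IV collagen. Mmp2 measured 51.3, 30.7, 31.2 and 44.9 CPM in ADF + ENZ tumours, 16.3, 47.8, 36.8 and 33.8 in ADF tumours and 27.2, 43.3, 39.4 and 32.8 in ENZ tumours, against 29.4, 32.5, 12.0 and 33.98 in Vehicle tumours. The groups overlapped, and the log2 change in ADF + ENZ against Vehicle was 0.55 ± 0.34 (SE), adjusted p = 0.314 by edgeR. Mmp9 had levels of 10.6 ± 6.42 CPM in ADF + ENZ, 5.90 ± 3.15 in ADF, 6.25 ± 2.301 in ENZ and 6.11 ± 1.24 in Vehicle (SD, n = 4 each), and it too passed in no contrast.

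Mmp11, a stromelysin made mainly by stromal fibroblasts in carcinomas, was higher on average in ADF + ENZ without passing. Mmp11 measured 38.7, 23.4, 46.2 and 30.9 CPM in ADF + ENZ tumours, 26.5, 24.6, 23.7 and 30.8 in ADF tumours and 26.4, 29.1, 22.4 and 29.7 in ENZ tumours, against 28.6, 25.1, 30.8 and 20.3 in Vehicle tumours. Its log2 change in ADF + ENZ against Vehicle was 0.40 ± 0.17 (SE), adjusted p = 0.140 by edgeR, and the groups overlapped.

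Members of the chromosome 9 cluster were among the most uneven between tumours of one group. The pooled SD within groups, on the log2 scale, was 1.32 for Mmp12, at percentile 99.8 of all genes tested, 1.10 for Mmp13 (99.4), 1.06 for Mmp8 (99.3), 0.987 for Mmp3 (99.0) and 0.716 for Mmp10 (96.2). The median was 0.58 over the 16 tested Mmp genes, 0.34 over the 14 Adamts, 0.44 over the 4 Timp and 0.24 over all genes. Outside the cluster, Adamts15 (1.28) and Timp4 (1.19) were as uneven. These percentiles are over genes of any level, and counting error adds to the spread of scarce genes. Mmp8, Adamts15 and Timp4 were scarce, at means of 1.10, 2.04 and 1.34 CPM over the 16 libraries.

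Mmp12 measured 20.8, 23.4, 5.48 and 7.31 CPM in ADF + ENZ tumours, 13.0, 22.2, 14.6 and 5.09 in ADF tumours and 15.03, 32.8, 17.6 and 1.95 in ENZ tumours, against 82.4, 30.2, 132 and 13.5 in Vehicle tumours; this macrophage elastase was given in full after its values were seen. Vehicle replicates 1 and 3 were far above the other tumours, and Vehicle replicate 4 lay inside the other groups. The log2 change was -2.17 ± 0.84 (SE), adjusted p = 0.110 in ADF + ENZ against Vehicle, -2.22 ± 0.84 (SE), adjusted p = 0.114 in ADF against Vehicle and -1.96 ± 0.83 (SE), adjusted p = 0.207 in ENZ against Vehicle by edgeR, while DESeq2 gave adjusted p = 0.0432 for the first and 0.0394 for the second. The summed level of 10 macrophage markers was 2056 to 2888 CPM in ADF + ENZ, 2232 to 2605 in ADF, 2035 to 2852 in ENZ and 2182 to 3137 in Vehicle. In Vehicle replicates 1 and 3 it was 2182 and 2246, the lowest values of that group. The part of macrophages in the Mmp12 levels was not tested.

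Mmp13 measured 29.4, 5.91, 2.19 and 22.2 CPM in ADF + ENZ tumours, 1.92, 14.2, 6.93 and 3.66 in ADF tumours and 6.62, 10.4, 8.23 and 6.10 in ENZ tumours, against 11.4, 24.9, 20.1 and 10.8 in Vehicle tumours; this is the main interstitial collagenase of rodents, also chosen after its values were seen. ADF + ENZ tumours spanned nearly the whole range, and ENZ tumours all lay below Vehicle. Mmp3 measured 21.4, 17.2, 4.82 and 25.6 CPM in ADF + ENZ tumours, 7.59, 23.0, 9.21 and 10.3 in ADF tumours and 15.4, 26.8, 21.8 and 13.5 in ENZ tumours, against 10.8, 17.4, 2.09 and 18.3 in Vehicle tumours. This stromelysin, with a broad range of matrix substrates, was lowest in Vehicle replicate 3 and ADF + ENZ replicate 3, and all groups overlapped. Neither passed in any contrast, and nor did Mmp10, a stromelysin that spanned 1.97 to 19.3 CPM over the 16 tumours, or Mmp8, the neutrophil collagenase, at 0.242 to 4.97 CPM.

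**Figure D4:**
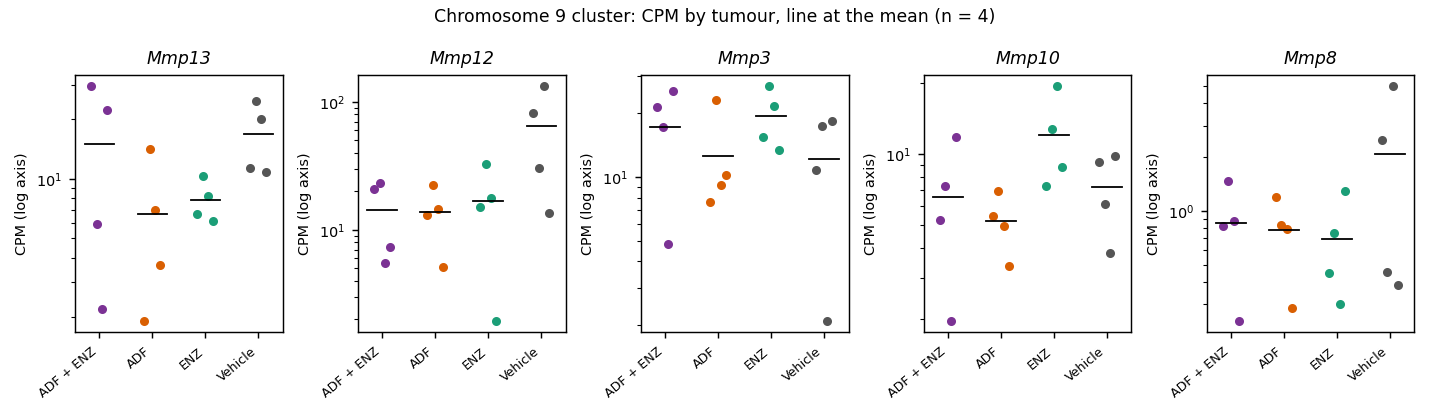
Level in CPM, on a log axis, of the tested members of the chromosome 9 cluster, one dot per tumour, groups in the order ADF + ENZ, ADF, ENZ and Vehicle. Mmp12 spans 1.95 to 132 CPM over the 16 tumours and Mmp13 spans 1.92 to 29.4 CPM.

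Timp2 (chr11:118301069-118355740) was the inhibitor that changed. Timp2 measured 1372, 852, 1405 and 1099 CPM in ADF + ENZ tumours, 844, 923, 948 and 849 in ADF tumours and 891, 738, 765 and 836 in ENZ tumours, against 979, 1225, 1028 and 965 in Vehicle tumours. ADF + ENZ replicate 2 was the lowest tumour of its group and lay inside the ADF and ENZ ranges. The ADF and ENZ tumours all lay below every Vehicle tumour. Levels were 1182 ± 259 CPM in ADF + ENZ, 891 ± 52.4 in ADF, 807 ± 69.4 in ENZ and 1049 ± 120.1 in Vehicle (SD, n = 4 each). Timp2 rose in ADF + ENZ against ENZ (0.55 ± 0.13 (SE), adjusted p = 0.0464) and in ADF + ENZ against ADF (0.41 ± 0.13 (SE), adjusted p = 0.0393), by edgeR's test. The interaction was 0.79 ± 0.18 (SE), adjusted p = 0.0295. Against Vehicle, the log2 change was 0.17 in ADF + ENZ (adjusted p = 0.420), -0.24 in ADF (adjusted p = 0.258) and -0.38 in ENZ (adjusted p = 0.0968), where DESeq2 gave -0.39 and a call (adjusted p = 0.0478). The call against ENZ was lost with only the 2 groups in the fit (0.54), with the no-feature percent as covariate (0.46), without ADF + ENZ replicates 1 and 3 (0.47 and 0.44) and without ENZ replicates 1, 2, 3 and 4 (0.60, 0.51, 0.52 and 0.57). The call against ADF was lost with only the 2 groups in the fit (0.40), with the no-feature percent as covariate (0.05), without ADF + ENZ replicates 1 and 3 (0.33 and 0.31) and without ADF replicates 1, 2, 3 and 4 (0.38, 0.43, 0.44 and 0.39), and the interaction with the no-feature percent as covariate (0.42), without ADF + ENZ replicates 1 and 3 (0.71 and 0.68), without ADF replicate 4 (0.76), without ENZ replicates 2 and 3 (0.75 and 0.76) and without Vehicle replicates 2 and 3 (0.71 and 0.80). The fibroblast marker sum given above was also lower in ENZ than in ADF + ENZ and Vehicle. By gene, 1 of the 10 markers rose and 0 fell in ADF + ENZ against ENZ, with a median log2 change of 0.16. The part of this sum in the Timp2 result was not tested.

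The other inhibitors passed in no contrast. Timp1 measured 64.7, 58.4, 72.2 and 65.6 CPM in ADF + ENZ tumours, 40.9, 70.2, 53.2 and 49.7 in ADF tumours and 88.7, 63.1, 59.9 and 71.3 in ENZ tumours, against 59.1, 146, 51.4 and 71.4 in Vehicle tumours. Vehicle replicate 2 stood above the rest. Timp3 measured 168, 152, 166 and 173 CPM in ADF + ENZ tumours, 78.7, 160.4, 129.7 and 216 in ADF tumours and 339, 190.5, 158 and 113 in ENZ tumours, against 176, 280.2, 236 and 266 in Vehicle tumours; this inhibitor binds to the matrix, and its exons overlap Syn3 on the other strand over 1733 bp. The ADF + ENZ tumours lay below every Vehicle tumour, and a fit of only those 2 groups gave -0.55 with adjusted p = 0.0209 by edgeR, against 0.300 in the fit of 16 libraries. Syn3 was also lower in every ADF + ENZ tumour than in any Vehicle tumour. Its log2 change was -1.02 (adjusted p = 0.178, edgeR, 16 libraries), and the part of the overlap was not tested. Timp4 measured 1.14, 1.66, 0.438 and 1.17 CPM in ADF + ENZ tumours, 3.68, 0.711, 0.630 and 0.215 in ADF tumours and 1.16, 2.12, 2.28 and 0.0831 in ENZ tumours, against 1.37, 0.915, 1.24 and 2.65 in Vehicle tumours. Its groups overlapped throughout.

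Summed over members per kb of exon, the 4 inhibitors reached 397 ± 72.6 CPM per kb in ADF + ENZ, 307 ± 27.0 in ADF, 312 ± 40.8 in ENZ and 391 ± 81.7 in Vehicle (SD, n = 4 each). The Mmp genes reached 99.3 ± 18.5, 82.8 ± 23.3, 92.7 ± 10.6 and 97.3 ± 10.1 CPM per kb in the same order of groups. Their ratio was 4.07 ± 0.904 in ADF + ENZ, 3.85 ± 0.652 in ADF, 3.42 ± 0.771 in ENZ and 3.99 ± 0.419 in Vehicle, and 2.66 to 5.42 over the 16 tumours. The groups overlapped in this ratio, which is given without a test. Timp2 made up 61.3% to 79.4% of the inhibitor sum and Mmp14 27.1% to 43.7% of the Mmp sum.

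**Figure D5:**
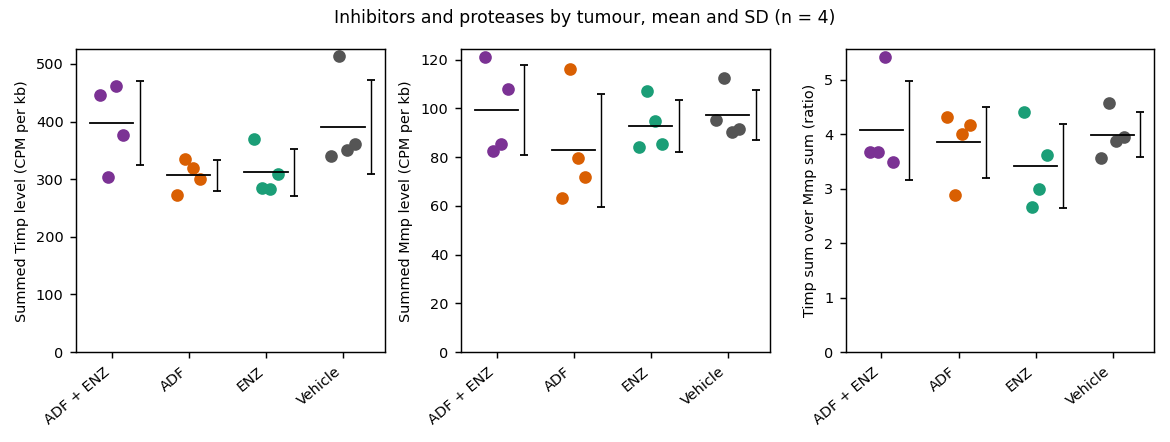
Summed level of the Timp genes and of the Mmp genes in CPM per kb of exon, and their ratio, one dot per tumour with mean and SD (n = 4), groups in the order ADF + ENZ, ADF, ENZ and Vehicle. The ratio lies between 2.66 and 5.42 in every tumour, and the groups overlap.

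Genes that act with the metalloproteinases were taken from lists chosen with earlier results known. Over all genes tested, 5.97% rose and 6.53% fell in ADF + ENZ against Vehicle, 4.05% and 4.96% in ADF against Vehicle, 1.81% and 3.62% in ENZ against Vehicle, 0.813% and 0.274% in ADF + ENZ against ENZ, 8.72% and 7.54% in ADF + ENZ against ADF, and 2.18% and 0.918% were positive and negative for the interaction. Of 55 calls of genes on the lists of the pathway, cathepsins and ADAMTS-like genes included, 8 held in all settings. Calls in ADF + ENZ against ADF and for the interaction could not, because 0 of 18946 genes passed there with the no-feature percent as covariate.

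Of 8 tested genes of the plasminogen system, which activates several pro-MMPs, 0 rose and 1 fell in ADF + ENZ against Vehicle, 0 rose and 3 fell in ADF against Vehicle, 0 rose and 1 fell in ENZ against Vehicle, 1 rose and 0 fell in ADF + ENZ against ENZ, 2 rose and 0 fell in ADF + ENZ against ADF, and 1 was positive and 0 negative for the interaction. Serpine2, a serine protease inhibitor, fell in ADF against Vehicle (log2 -1.17 ± 0.26 (SE), adjusted p = 0.0162, edgeR), a call lost with the no-feature percent as covariate (-0.997). Anxa2, a surface receptor for plasminogen, fell in ADF + ENZ, ADF and ENZ against Vehicle, with log2 changes of -0.29, -0.44 and -0.44. The ENZ call of Anxa2 held in every setting and the ADF call was lost with the no-feature percent as covariate (-0.18). Its ADF + ENZ call was lost with only the 2 groups in the fit (-0.30), without ADF + ENZ replicates 1, 2 and 4 (-0.30, -0.21 and -0.29) and without Vehicle replicates 1, 2, 3 and 4 (-0.31, -0.27, -0.29 and -0.31).

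Among 17 tested cell-surface regulators, 1 rose and 3 fell in ADF + ENZ against Vehicle, 1 rose and 4 fell in ADF against Vehicle, 0 rose and 4 fell in ENZ against Vehicle, 1 rose and 0 fell in ADF + ENZ against ENZ, 0 rose and 0 fell in ADF + ENZ against ADF, and 3 were positive and 0 negative for the interaction. In ADF + ENZ against ADF, where 0 were called, 4 of the 17 passed at an unadjusted p under 0.05 by edgeR. DESeq2 called 2 of them there, and 3710 of 18519 genes. Unadjusted counts, here and below, are given for contrasts with 0 calls, and no share over all genes was taken for them. Bsg, basigin, an inducer of MMP synthesis, fell in ADF against Vehicle (-0.72 ± 0.11 (SE), adjusted p = 0.000929, edgeR), a call lost with the no-feature percent as covariate (-0.44). Bsg also fell in ADF + ENZ against Vehicle, a call that held in every setting. Its log2 change there was -0.62 to -0.40 with 1 library left out. Adam10, a sheddase, fell in ADF + ENZ, ADF and ENZ against Vehicle, with log2 changes of -0.36, -0.43 and -0.39; its ADF call was lost with the no-feature percent as covariate (-0.40), and the other 2 held in every setting. Lrp1, an endocytic receptor that clears MMPs and TIMPs, rose in ADF + ENZ against ENZ (0.58 ± 0.14 (SE), adjusted p = 0.0478), a call lost with only the 2 groups in the fit (0.58), with the no-feature percent as covariate (0.61), without ADF + ENZ replicates 1, 2 and 3 (0.67, 0.52 and 0.50) and without ENZ replicates 1, 3 and 4 (0.62, 0.51 and 0.52).

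Of 23 tested substrates, 1 rose and 0 fell in ADF + ENZ against Vehicle, 0 rose and 1 fell in ADF against Vehicle, 0 rose and 1 fell in ENZ against Vehicle, 3 rose and 0 fell in ADF + ENZ against ENZ, 1 rose and 0 fell in ADF + ENZ against ADF, and 1 was positive and 0 negative for the interaction. Fibronectin, Fn1, fell in ENZ against Vehicle (-1.06 ± 0.18 (SE), adjusted p = 0.00207, edgeR), which held in every setting. In ADF + ENZ against ENZ it rose by 0.89, a call lost without a filter on low counts (0.88), with the no-feature percent as covariate (0.84), without ADF + ENZ replicates 1 and 3 (0.85 and 0.80) and without ENZ replicates 1, 3 and 4 (0.89, 0.85 and 0.88). Its interaction was 1.36 ± 0.26 (SE), adjusted p = 0.0126, lost with the no-feature percent as covariate (1.10). Versican, Vcan, a substrate of Adamts1, rose in ADF + ENZ against ENZ by 0.88, a call lost without a filter on low counts (0.87), with the no-feature percent as covariate (0.79), without ADF + ENZ replicates 1 and 3 (0.94 and 0.71) and without ENZ replicates 1, 2, 3 and 4 (0.97, 0.88, 0.80 and 0.88).

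Of 11 AP-1 genes, 1 rose and 2 fell in ADF + ENZ against Vehicle, 0 rose and 1 fell in ADF against Vehicle, 0 rose and 2 fell in ENZ against Vehicle, 0 rose and 0 fell in ADF + ENZ against ENZ, 1 rose and 0 fell in ADF + ENZ against ADF, and 0 were positive and 0 negative for the interaction. At an unadjusted p under 0.05 by edgeR, 3 passed in ADF + ENZ against ENZ, where DESeq2 called 0, and 2 for the interaction, where DESeq2 called 2. Fos fell in ADF + ENZ against Vehicle (-1.46 ± 0.35 (SE), adjusted p = 0.0153, edgeR), a call lost without ADF + ENZ replicate 3 (-1.32). It also fell in ENZ against Vehicle (-1.36 ± 0.35 (SE), adjusted p = 0.0358), a call lost without a filter on low counts (-1.37), with only the 2 groups in the fit (-1.36), without ENZ replicates 3 and 4 (-1.18 and -1.12) and without Vehicle replicates 1, 2 and 3 (-1.19, -1.36 and -1.37).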

How the data were processed

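Tumour RNA from 16 libraries, 4 a group, was measured by paired-end sequencing. Per the submitters' processing notes, Trim Galore, HISAT2, featureCounts and DESeq2 were used, with the builds mm39 and GRCh38 and no versions or roles. For the strand setting, these notes and the labels give nothing. The authors deposited raw counts for each gene ID, with 5 special entries, such as reads in no feature, which held 43.5% to 53.1% of reads and were kept out of library sizes and tests. Symbols, gene class, exon length and positions came from GENCODE vM21 (GRCm38), an earlier build than mm39, which named 52081 of 55414 IDs.

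Members were protein-coding genes with symbols that start with Mmp or Adamts and a digit, and Timp1 to Timp4. Members and lists were chosen with earlier results of these data known. Values in every library were planned for each Timp, each member past the threshold with a group mean of at least 1 CPM, and the 10 highest per kb of exon; other members given in full were chosen after their values were seen.

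Counts were tested with edgeR 4.0.16 in R 4.3.3 (robust quasi-likelihood, TMM, filterByExpr at a count of 10 and a total of 15) in one fit of 16 libraries and 18946 genes, with Benjamini-Hochberg adjustment over all genes of each contrast and a threshold of 0.05. CPM are TMM-scaled. Genes without a count are given an upper limit of 3 counts over their group. Alternatives tried were edgeR with size factors from DESeq2, the DESeq2 1.42.0 Wald test, no filter, a stricter filter (at least 1 CPM in 4 libraries), only the 2 groups compared, the no-feature percent of each library as covariate, and each library left out. The pipeline was tested on simulated data. The 24 replicate pairs gave a chi-square of 5.19 to 33.9 per degree of freedom, above counting error, so no library was counted as a repeat of another. Some genes of the marker and overlap checks are not reported here. Promoter windows were from RefSeq (GRCm38.p6). Figures were drawn with matplotlib 3.10.9.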

Additional observations from a re-analysis of the deposited data

Results flagged for a closer look

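Of 68 groups of 4 tumours examined, 3 held a tumour far from the other tumours of its group, and chance gives about 1 in 20. Mmp14 was at 303 CPM in ADF replicate 2. Adamts3 was at 5.92 CPM in ADF replicate 1. Timp4 was at 3.68 CPM in ADF replicate 1. The fasting effect differed with and without enzalutamide for Mmp19, by 0.83 on the log2 scale, and for Timp2, by 0.79, in edgeR's test of the interaction. Each of these calls held in 9 of 16 fits with 1 library left out and was lost with the no-feature percent as covariate.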

How the results depend on the processing

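Of the 21 calls of members, 5 held in every fit with 1 library left out and 4 held in all settings: Adamts3 and Adamts10, each in ENZ against Vehicle and in ADF + ENZ against Vehicle. The settings include the no-feature percent as covariate, with which 0 of 18946 genes passed in ADF + ENZ against ADF or for the interaction. Calls there could not hold in all settings, and with 6 genes passing in ADF against Vehicle, calls of that comparison hardly could. None of the 21 changed direction in any setting run. With the no-feature percent of each library as covariate, 0 members passed in ADF against Vehicle, where 6 of all 18946 genes did. In ADF + ENZ against ENZ, 0 members and 43 genes passed. ADF + ENZ against Vehicle had 3 members and 1579 genes past the threshold. In ADF + ENZ against ADF and for the interaction, 0 members and 0 genes passed. This percent was higher in every ADF library than in any other library. Under that covariate the change in ADF + ENZ against ADF turned round for Adamtsl4, to 0.14, and for Cst6, to -0.040; the cause was not tested. DESeq2 called 6 members and 1577 of 18519 genes in ENZ against Vehicle. A fit of only the 2 groups called 0 members and 54 of 17388 genes in ADF + ENZ against ENZ. With 1 library left out, members called numbered 2 to 4 in ENZ against Vehicle, 1 to 4 in ADF against Vehicle, 3 to 7 in ADF + ENZ against Vehicle, 0 to 2 in ADF + ENZ against ENZ, 1 to 7 in ADF + ENZ against ADF and 0 to 4 for the interaction. Over all genes, the same fits called 403 to 1194, 610 to 1862, 1202 to 2286, 20 to 358, 1197 to 3403 and 148 to 908 genes, in the same order. The inhibitor ratio, with 1 library left out, was 3.62 to 4.26 in ADF + ENZ, 3.69 to 4.17 in ADF, 3.09 to 3.68 in ENZ and 3.80 to 4.13 in Vehicle. Without division by exon length, which was chosen after seeing the data, it was 3.51 in ADF + ENZ, 3.21 in ADF, 2.91 in ENZ and 3.198 in Vehicle, so Vehicle no longer lay above ADF. No paired analysis was possible because the labels give the groups no shared replicate numbers.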

Other observations

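Lysosomal cathepsins and their cystatin inhibitors, another set of matrix-degrading enzymes, were all tested (13 of 13), and 0 rose and 3 fell in ADF + ENZ against Vehicle, 0 rose and 4 fell in ADF against Vehicle, 0 rose and 1 fell in ENZ against Vehicle, 0 rose and 0 fell in ADF + ENZ against ENZ, 3 rose and 0 fell in ADF + ENZ against ADF, and 1 was positive and 0 negative for the interaction. In ADF + ENZ against ENZ, 4 passed at an unadjusted p under 0.05 by edgeR. DESeq2 called 0 of them there, and 668 of 14179 genes. The shares of all genes that rose and fell were 5.97% and 6.53% for ADF + ENZ, 4.05% and 4.96% for ADF and 1.81% and 3.62% for ENZ, each against Vehicle, and 8.72% and 7.54% for ADF + ENZ against ADF. Cst3, cystatin C, a secreted cathepsin inhibitor, fell in ADF + ENZ, ADF and ENZ against Vehicle, with log2 changes of -0.76, -0.67 and -0.62. The ADF + ENZ call held in every setting, the ADF call was lost with the no-feature percent as covariate (-0.92) and without Vehicle replicate 3 (-0.57), and the ENZ call without ENZ replicates 2, 3 and 4 (-0.57, -0.57 and -0.57) and without Vehicle replicates 1, 3 and 4 (-0.60, -0.51 and -0.64). Ctsl, a cysteine protease, rose in ADF + ENZ against ADF (0.78 ± 0.15 (SE), adjusted p = 0.00369, edgeR), a call lost with the no-feature percent as covariate (0.27). In ADF against Vehicle Ctsl fell (-0.47 ± 0.15 (SE), adjusted p = 0.0497), a call lost without a filter on low counts (-0.50), with a stricter filter (-0.47), with only the 2 groups in the fit (-0.47), with the no-feature percent as covariate (-0.08), without ADF replicates 2, 3 and 4 (-0.47, -0.44 and -0.37) and without Vehicle replicates 1, 2 and 3 (-0.40, -0.50 and -0.48). Its interaction was 0.83 ± 0.21 (SE), adjusted p = 0.0385, lost with the no-feature percent as covariate (0.32), without ADF + ENZ replicates 1 and 3 (0.75 and 0.76), without ADF replicates 2, 3 and 4 (0.83, 0.80 and 0.73), without ENZ replicates 1, 3 and 4 (0.75, 0.80 and 0.86) and without Vehicle replicates 1, 2 and 3 (0.75, 0.85 and 0.84).

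Of 6 tested ADAMTS-like genes and papilin, which share the thrombospondin repeats of ADAMTS proteases without the protease domain, Adamtsl4 was the one called. It rose in ADF against Vehicle (0.52 ± 0.12 (SE), adjusted p = 0.0153, edgeR), a call lost with the no-feature percent as covariate (0.10), without ADF replicate 4 (0.50) and without Vehicle replicate 2 (0.46). It fell in ADF + ENZ against ADF (-0.40 ± 0.12 (SE), adjusted p = 0.0367), a call lost without ADF + ENZ replicates 1, 3 and 4 (-0.40, -0.31 and -0.38) and without ADF replicates 1, 2 and 4 (-0.37, -0.40 and -0.37), and it turned round to 0.14 with the no-feature percent as covariate.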
